A study of Arabidopsis thaliana with 6 samples.

Results

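The SIAMESE-related genes of Arabidopsis thaliana encode small plant-specific proteins that inhibit cyclin-dependent kinases (CDKs), the kinases that drive the cell cycle. The 8 genes described here were taken by locus, as a family chosen with earlier results of these data known. They are SIM (SIAMESE, AT5G04470), SMR1 (SIAMESE-RELATED 1, also called LGO, AT3G10525), SMR2 (AT1G08180), SMR3 (AT5G02420), SMR4 (AT5G02220), SMR5 (AT1G07500), SMR6 (AT5G40460) and SMR7 (AT3G27630). All 8 were measured, each by 1 row of the expression table, among 29920 loci in all.

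The samples were leaf 3 of Col-0 seedlings, at an age labelled 9 DAS, from a strong ERF6-overexpressing line (genotype ERF6:IOE, 3 arrays) and a control line (genotype GFP:IOE, 3 arrays). Both lines had been moved to 5 µM dexamethasone 4 h before harvest, so the control carries the inducer too. RNA was hybridised to AGRONOMICS1 whole-genome tiling arrays, and the arrays of a line are called biological repeats 1 to 3 in the labels. Each genotype is represented by a single line, and the promoter that drives the transgene is not named in the labels. The series holds no array without induction. The effect of ERF6, the effect of the line and differences that predate induction therefore cannot be told apart.

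A growing leaf passes from cell division to cell expansion. During that passage many cells skip mitosis but go on copying their DNA, a cycle called endoreduplication. SIM-type inhibitors bind CDK-cyclin complexes and block entry into mitosis, and some members are induced by stress such as DNA damage. ERF6 (ETHYLENE RESPONSE FACTOR 6), an AP2/ERF transcription factor, acts in leaf growth under water limitation, and the comparison of the lines asks which of these inhibitor transcripts differ when it is overexpressed.

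Values are log2 expression as deposited, given per array or as mean ± SD (n = 3 in each line). A log2 fold is ERF6:IOE minus GFP:IOE, and its SE and adjusted p come from a limma fit over all 30237 rows, with an adjusted p of 0.05 as the threshold. ERF6 itself was higher in ERF6:IOE, where its log2 fold reached 2.85 (SE 0.20, limma adjusted p 0.00107). Arrays correlated across rows with r from 0.984 to 0.987 within a line and from 0.977 to 0.983 between lines. Of 5 photosynthesis marker genes of leaf tissue 3 were measured, and all 3 lay above the upper quartile of every array. None of the 4 shoot meristem markers did, and 1 of 6 root markers did, PYK10, which encodes a beta-glucosidase. No marker gene passed the test.

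None of the 8 SIAMESE-related genes passed the test. Over all rows 0.724% passed in either direction, 0.698% as higher and 0.0265% as lower. The members did not share a direction: 4 had a positive and 4 a negative log2 fold, with a median of 0.03 against -0.02 over all rows, of which 46.2% were positive. The family median changed sign with single arrays left out, at -0.054 without ERF6:IOE replicate 2, -0.029 without GFP:IOE replicate 1 and -0.015 without ERF6:IOE replicate 3. SMR2 had the largest log2 fold (0.70), followed by SMR6 (0.56), and SMR4 had the most negative (-0.35). The absolute log2 fold was at least 0.5 in 2 of 8 members and in 3.74% of all rows. These 3 were the members whose arrays did not overlap between the lines, and the 3 with an unadjusted limma p under 0.05. Over all rows 13.5% did not overlap and 8.02% had an unadjusted p under 0.05. By direction, lines did not overlap upward in 2 of 8 members against 6.93% of all rows, and downward in 1 of 8 against 6.52%. An unadjusted p under 0.05 was found upward in 2 members against 4.8% of all rows, and downward in 1 against 3.22%.

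**Figure D1:**
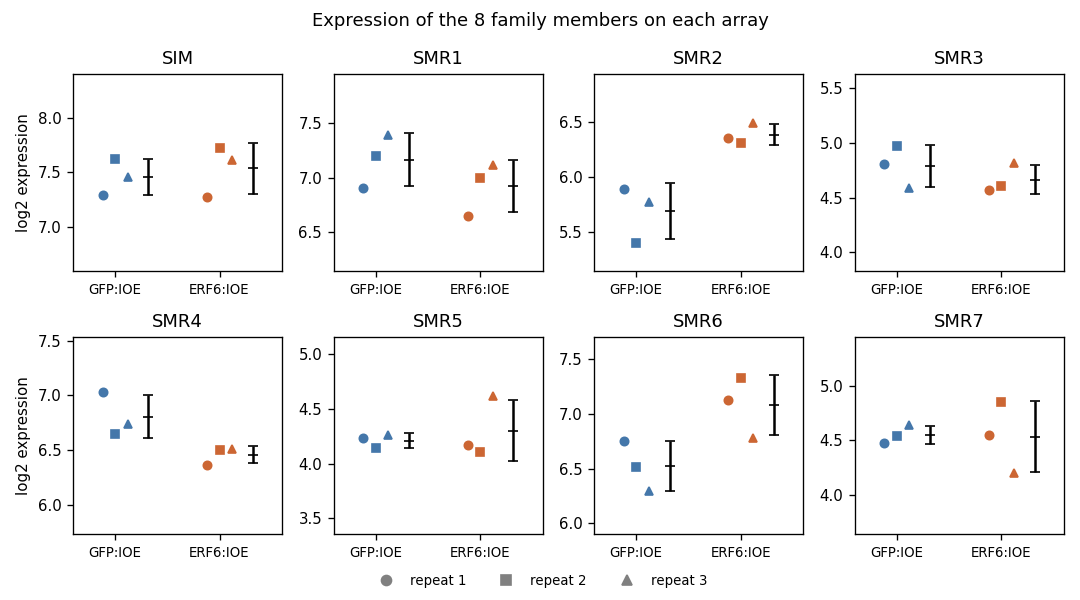
Log2 expression (vertical axes, each spanning the same range of log2 units) of the 8 genes on the 3 GFP:IOE arrays (blue) and the 3 ERF6:IOE arrays (orange). Symbols mark the repeat number, and black bars give the mean ± SD of each line. The lines do not overlap for SMR2, SMR4 and SMR6, and they overlap for the other 5 genes.

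SIM and SMR1 are the best known members in the leaf epidermis. SIM keeps developing trichomes, the leaf hairs, from dividing, and trichomes of the sim mutant become multicellular. SIM read 7.29, 7.62 and 7.46 in repeats 1, 2 and 3 of GFP:IOE and 7.27, 7.72 and 7.61 in ERF6:IOE. The lines overlapped, and in both of them repeat 1 had the lowest and repeat 2 the highest value. Between the lines the log2 fold was 0.08 (SE 0.15, 95% interval -0.27 to 0.43, limma adjusted p 0.95).

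Trichome genes are given beside SIM because SIM acts in trichomes. In RNA from whole leaves, fewer cells of a type and less RNA per cell cannot be told apart, which holds for every value given here. The summed level of 5 trichome markers, on the log2 scale, ran from 8.83 to 8.92 in GFP:IOE and from 8.86 to 8.99 in ERF6:IOE. Of 8 genes of trichome and giant cell formation, which include these 5 markers, none passed in either direction. The median log2 fold of the 8 was 0.0026, with a range from -0.031 to 0.053 when arrays were left out. The log2 fold of TTG1, a WD40 protein of trichome initiation, was 0.17 (limma adjusted p 0.788). That of GL3, a bHLH factor of the same complex, was -0.26 (limma adjusted p 0.746).

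SMR1 promotes the formation of giant cells, large endoreduplicated cells of the sepal and leaf epidermis. The protein is also known to take part in the growth arrest of leaves under mild drought, where its stability is regulated; protein was not measured here. SMR1 read 6.91, 7.20 and 7.38 in repeats 1, 2 and 3 of GFP:IOE and 6.65, 7.00 and 7.12 in ERF6:IOE. The lines overlapped, but each ERF6:IOE array was below the GFP:IOE array of the same number, by a log2 difference of -0.26, -0.20 and -0.27. The mean difference was -0.24 on the log2 scale (SE 0.17, 95% interval -0.64 to 0.15, limma adjusted p 0.821). It was -0.11 without ERF6:IOE replicate 1, -0.13 without GFP:IOE replicate 3 and -0.37 without GFP:IOE replicate 1. With the repeat number as a block the SE was 0.09 and the limma adjusted p 0.474, so the gene did not pass in that fit either.

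**Figure D2:**
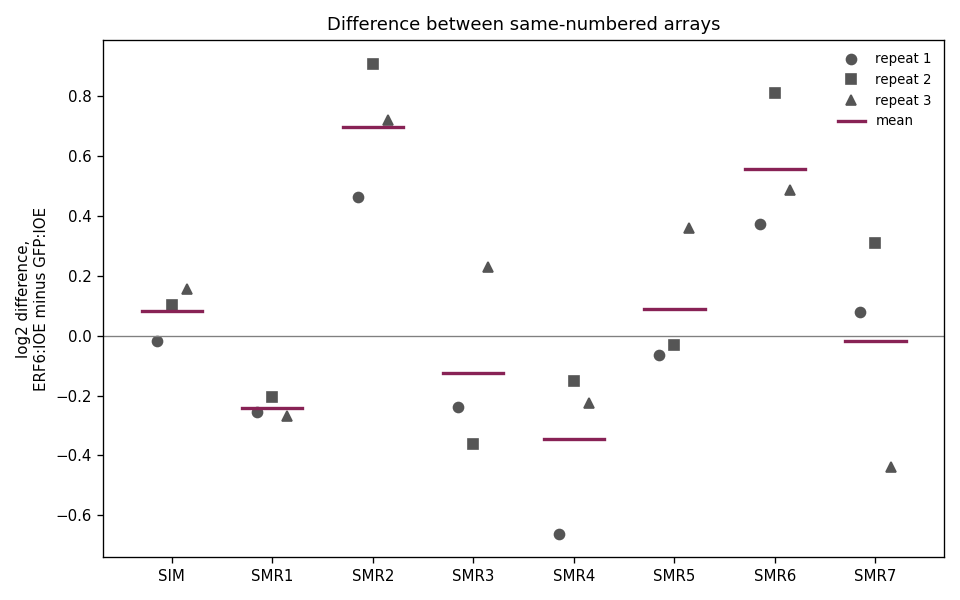
Difference in log2 expression between the ERF6:IOE and the GFP:IOE array of the same repeat number (vertical axis) for each of the 8 genes, with the mean of the 3 differences as a purple line. SMR2 and SMR6 lie above 0 and SMR1 and SMR4 below 0 in 3 of 3 repeats. The other 4 genes lie on both sides of 0. The share of all rows with 3 differences of the same sign was not computed. The labels do not say that equal numbers pair the arrays.

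SMR4 acts in the stomatal lineage, where it slows the cell cycle before the last divisions that form guard cells. SMR4 read 7.03, 6.65 and 6.73 in repeats 1, 2 and 3 of GFP:IOE and 6.37, 6.50 and 6.51 in ERF6:IOE. All ERF6:IOE arrays lay below all GFP:IOE arrays, and GFP:IOE repeat 1 stood highest. The means were 6.80 ± 0.20 and 6.46 ± 0.08, and the log2 fold of -0.35 (SE 0.13, 95% interval -0.64 to -0.05) had a limma adjusted p of 0.495. Without GFP:IOE replicate 1 the log2 fold was -0.23, and without repeat 1 of both lines it was -0.19. Leaving out arrays could not change the sign, because the lines do not overlap for SMR4. The summed level of 5 stomatal lineage markers ran from 9.38 to 9.42 in GFP:IOE and from 9.38 to 9.48 in ERF6:IOE. None of these markers passed the test, and 3 had a positive and 2 a negative log2 fold. Only SPCH was higher without overlap (log2 fold 0.20, limma adjusted p 0.689), 1 of 5 against 6.93% of all rows. The part of these markers in the SMR4 values was not tested.

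SMR5 and SMR7 are stress-responsive members, induced by DNA damage and reactive oxygen species through the transcription factor SOG1. SMR5 read 4.23, 4.14 and 4.26 in repeats 1, 2 and 3 of GFP:IOE and 4.17, 4.11 and 4.62 in ERF6:IOE. Apart from ERF6:IOE repeat 3 the arrays lay close together, and the SD was 0.06 in GFP:IOE and 0.28 in ERF6:IOE. For SMR5 the log2 fold was 0.09 (SE 0.15, limma adjusted p 0.944), and without ERF6:IOE replicate 3 it was -0.07.

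SMR7 read 4.47, 4.54 and 4.64 in repeats 1, 2 and 3 of GFP:IOE and 4.55, 4.85 and 4.20 in ERF6:IOE. The ERF6:IOE arrays lay on both sides of the GFP:IOE arrays, with repeat 3 the lowest of all 6 and repeat 2 the highest. For SMR7 the log2 fold was -0.02 (SE 0.17, limma adjusted p 0.989), and without ERF6:IOE replicate 3 it was 0.15. On the same array, ERF6:IOE repeat 3, SMR5 had its highest and SMR7 its lowest value. Both genes lay between the lower quartile and the median of each array, where RMA compresses differences, and detection was not assessed.

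None of 9 genes of the DNA damage response passed the test. Their log2 folds were negative for 8 of 9, with a median of -0.32 against -0.02 over all rows, and 4 had an unadjusted limma p under 0.05, all 4 lower, against 3.22% of all rows. Leaving out GFP:IOE replicate 1 moved the median to -0.20. The log2 fold of PARP2, a poly(ADP-ribose) polymerase, was -0.33 (SE 0.10, limma adjusted p 0.356). TSO2, a ribonucleotide reductase subunit that supplies nucleotides for DNA synthesis, came to -0.34 (SE 0.11, limma adjusted p 0.432). SOG1 itself was at -0.06 (SE 0.10).

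SMR2, SMR3 and SMR6 are less well characterised members. SMR2 read 5.89, 5.40 and 5.78 in repeats 1, 2 and 3 of GFP:IOE and 6.36, 6.31 and 6.50 in ERF6:IOE. Every ERF6:IOE array was above every GFP:IOE array, and GFP:IOE repeat 2 was the lowest. The means were 5.69 ± 0.26 and 6.39 ± 0.10, a log2 fold of 0.70 (SE 0.15), or 1.62-fold. Its 95% interval ran from 0.36 to 1.04, or from 1.28-fold to 2.05-fold, and the limma adjusted p was 0.131. By the absolute moderated t, SMR2 ranked 394th of 30237 rows, where 219 rows passed.

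In 18 alternative fits the limma adjusted p of SMR2 ran from 0.053 to 0.549 and the log2 fold from 0.55 to 0.81. The gene did not pass in any of these fits. Because the lines do not overlap for SMR2, leaving out arrays could not change its sign. The lowest adjusted p came from the fit restricted to rows above the median level, which tests fewer rows. Leaving out GFP:IOE replicate 2 gave a log2 fold of 0.55, and leaving out GFP:IOE replicate 1 gave 0.80.

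SMR6 read 6.75, 6.52 and 6.30 in repeats 1, 2 and 3 of GFP:IOE and 7.13, 7.33 and 6.78 in ERF6:IOE. The lines did not overlap, but ERF6:IOE repeat 3 and GFP:IOE repeat 1 were nearly equal, and repeat 3 was the lowest array of both lines. The means were 6.52 ± 0.23 and 7.08 ± 0.27. The log2 fold was 0.56 (SE 0.17, 95% interval 0.15 to 0.96), or 1.47-fold, with a limma adjusted p of 0.389. With the repeat number as a block the SE was 0.12 and the adjusted p 0.233.

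SMR3 read 4.81, 4.97 and 4.59 in repeats 1, 2 and 3 of GFP:IOE and 4.57, 4.61 and 4.82 in ERF6:IOE. The lines overlapped, with ERF6:IOE lower in repeats 1 and 2 and higher in repeat 3. For SMR3 the log2 fold was -0.12 (SE 0.13, limma adjusted p 0.901). It moved to -0.033 without GFP:IOE replicate 2, to -0.22 without GFP:IOE replicate 3, to -0.20 without ERF6:IOE replicate 3 and to -0.076 without ERF6:IOE replicate 1. Without repeat 2 of both lines it was -0.0046, and without repeat 3 it was -0.30.

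For the 5 members whose arrays overlapped (SIM, SMR1, SMR3, SMR5 and SMR7), the 95% intervals of the log2 fold held 0 and together ran from -0.64 to 0.44. A difference of more than 1.56-fold in the array values, in either direction, lay outside each of these intervals taken singly. SMR5 and SMR7 lay where RMA compresses differences, and SMR3 lay near the array medians, at percentiles from 42 to 53. A larger transcript difference is therefore not excluded for SMR3, SMR5 and SMR7. SEs of the 8 members ran from 0.13 to 0.17, against a median of 0.13 over all rows. All 8 genes lay above the lower quartile of every array, and SIM, SMR1 and SMR4 above the upper quartile of every array. A position on the array depends on the probes as well as on the transcript, so it does not rank the genes by abundance.

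The KRP proteins, Kip-related proteins, are the other family of plant CDK inhibitors, and 7 of 7 were measured. None passed in either direction, and their median log2 fold was -0.12, with 5 of 7 negative. That median was -0.20 without ERF6:IOE replicate 2 or GFP:IOE replicate 1, and -0.18 without GFP:IOE replicate 3. Leaving out arrays also moved it toward 0, with a full range from -0.204 to -0.080. KRP7 had the most negative log2 fold, reading 7.52, 7.32 and 7.20 in repeats 1, 2 and 3 of GFP:IOE and 6.69, 6.76 and 6.52 in ERF6:IOE. The lines did not overlap, and the log2 fold was -0.69 (SE 0.12) with a limma adjusted p of 0.0709. KRP7 passed in 3 alternative fits, with adjusted p-values of 0.0348 and 0.0232 when dim rows were left out and 0.0294 with a variance trend and robust prior. The log2 fold of KRP6 was -0.44 (SE 0.13, limma adjusted p 0.345). KRP3, named after its values were seen as the third KRP gene with no overlap, was at -0.27. Lines did not overlap downward in 3 of 7 KRP genes and upward in 0 of 7, against 6.52% and 6.93% of all rows. The difference between the families was not tested.

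**Figure D3:**
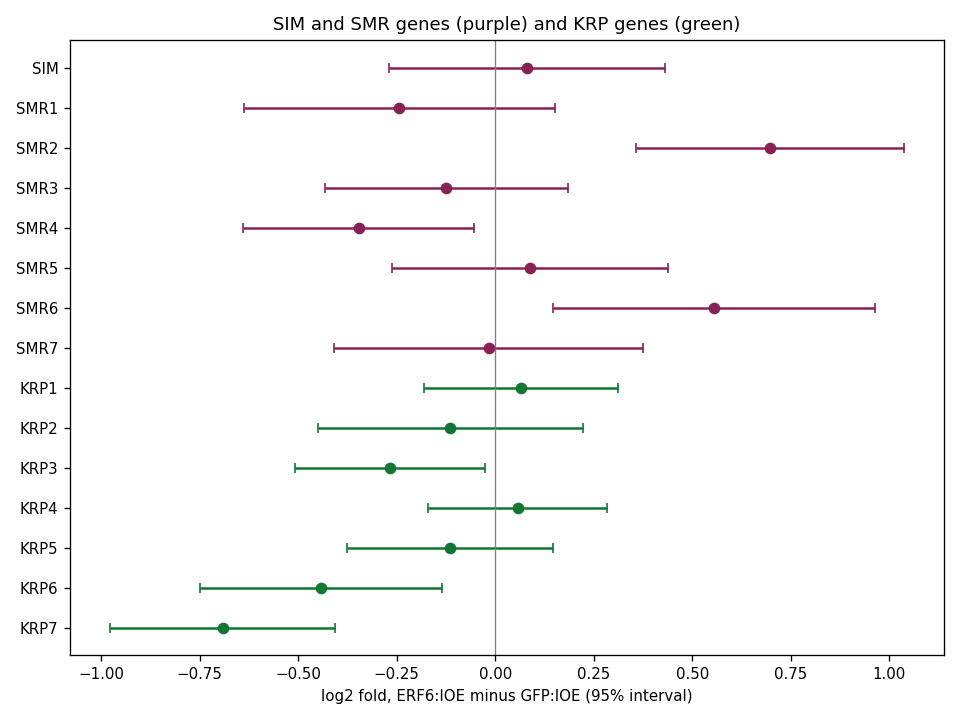
Log2 fold of ERF6:IOE minus GFP:IOE (horizontal axis) with its 95% interval from limma for the 8 SIM and SMR genes (purple) and the 7 KRP genes (green). SMR2 and SMR6 lie furthest above 0 and KRP7 furthest below it, and none of the 15 genes passed the adjusted threshold. The intervals are not adjusted for the number of rows.

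The listed genes of CDKs and D-type cyclins did not pass the test either. Of 5 CDK genes none passed, with a median log2 fold of -0.12, which was -0.0020 without GFP:IOE replicate 2 and -0.025 without ERF6:IOE replicate 1. CDKB2;2 (-0.18) and CDKB2;1 (-0.16), mitotic kinases, had the largest absolute moderated t. CDKA;1, the main kinase of the cycle and a partner of SIM-type inhibitors, was at 0.0015 (SE 0.10, 95% interval -0.22 to 0.23). Among 10 D-type cyclins, which bring growth signals to CDKs, none passed, and the median was -0.14, or -0.076 without GFP:IOE replicate 3 and -0.077 without ERF6:IOE replicate 2. The log2 fold of CYCD3;3, a D-type cyclin of dividing leaf cells, was -0.38 (SE 0.13, limma adjusted p 0.416) and that of CYCD4;1 -0.34 (SE 0.12, limma adjusted p 0.49).

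Of 13 A- and B-type cyclins and other genes of mitosis none passed, 12 were negative in log2 fold and their median stood at -0.18. The B-type cyclins CYCB1;1 and CYCB1;2 had log2 folds of -0.26 (SE 0.10) and -0.26 (SE 0.10), with limma adjusted p-values of 0.516 and 0.545. None of 9 genes of the switch to endoreduplication passed, with a median of -0.14, which was -0.041 without GFP:IOE replicate 2. Log2 folds were positive for 3 and negative for 6 of them. The list includes a repressor of the endocycle, so its median gives no direction for the endocycle. The log2 fold of DEL1, a repressor of the onset of the endocycle, was -0.41 (SE 0.11, limma adjusted p 0.301). CCS52B, an activator of the anaphase-promoting complex that is expressed in mitosis, was at -0.23 (SE 0.10, limma adjusted p 0.647). In these 7 lists of 61 genes, 15 had an unadjusted limma p under 0.05, all 15 of them lower in ERF6:IOE, where 3.22% of all rows were lower and 4.8% higher at that p. Whether these lists differ in direction from the SIM and SMR genes was not tested.

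**Figure D4:**
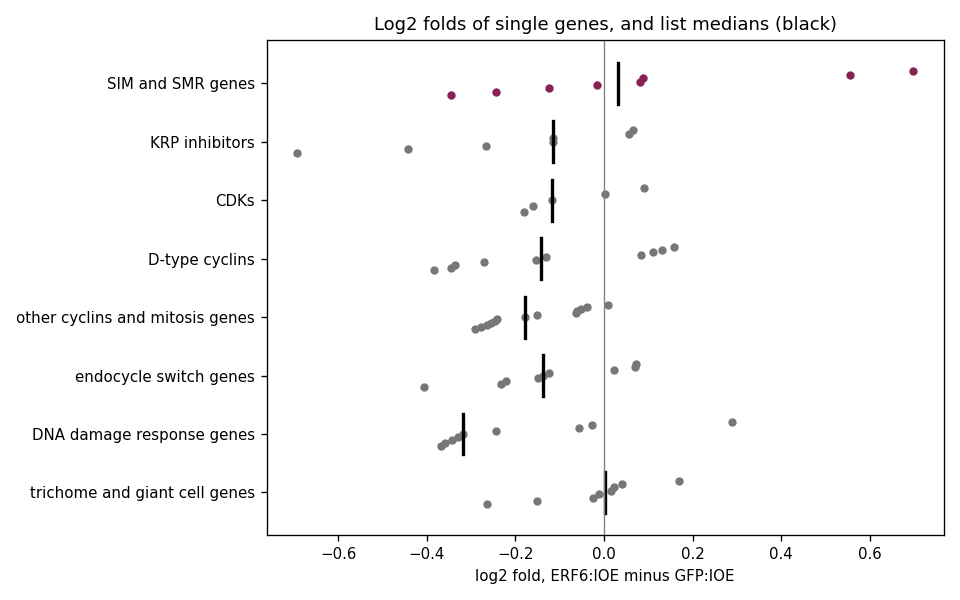
Log2 fold of ERF6:IOE minus GFP:IOE (horizontal axis) for each gene of the SIM and SMR family (purple points) and of 7 lists of related genes (grey points), with the median of each list as a black line. The family spans from -0.35 to 0.70 around a median of 0.03, and 6 of the 7 other medians lie below 0.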

How the data were processed

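Leaf 3 RNA of 2 lines was measured on 6 arrays. The deposited file is 1 table of log2 values, 30237 rows long. RMA and limma were used on TAIR9, per the submitters' processing notes, with no version or setting given in the sources used here. Quantile normalization, a step of RMA, removes overall shifts between arrays. Precision is limited by the number of arrays.

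Rows were matched by locus. Symbols come from a name table of TAIR10.1, except SMR2, SMR3 and SMR6, which are the usual names of their loci. A further list of SMR loci was left out because that table does not name them as such.

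Lines were compared with limma 3.58.1 in R 4.3.3 (lmFit, eBayes, two-sided, Benjamini-Hochberg adjustment over all rows, threshold 0.05), without a level filter. The code was tested on simulated data. The members and lists were chosen with earlier results of these data known. All members were named, and in each list the genes past the threshold and the 2 with the largest absolute moderated t. CDKA;1 and SOG1 were added as a known partner and regulator.

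Alternatives were the repeat number as a block, level filters, 3 normalizations, a robust prior with a variance trend, array weights, averaged rows, and leaving out repeats or arrays. Deviations from the line means correlated between same-numbered arrays with r of 0.192, 0.0782 and 0.21. The design text says that samples came from independent experiments, but neither it nor the labels say that a number marks a shared experiment, so the main fit had no block. Nothing in the labels describes how the plants of a repeat were pooled, so p-values measure the spread between these samples.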

Additional observations from a re-analysis of the deposited data

How the results depend on the processing

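No SIM or SMR gene passed the threshold in any of the 141 values computed under alternatives, and 7 of these had the other sign. All 7 came from leaving out arrays, for genes near 0. The block, level filters, variance trend and averaged rows leave a member's log2 fold as it was, so its sign could not change there. SIM had a log2 fold of -0.0019 without GFP:IOE replicate 1 and -0.012 without ERF6:IOE replicate 2 (leave-out range -0.012 to 0.21). SMR5 was at -0.047 without replicate 3 of both lines and -0.072 without ERF6:IOE replicate 3 (range -0.072 to 0.18). SMR7 was at 0.19 without replicate 3, 0.03 without GFP:IOE replicate 3 and 0.15 without ERF6:IOE replicate 3 (range -0.18 to 0.19). SMR2 and SMR6 kept a positive and SMR1, SMR3 and SMR4 a negative log2 fold in all alternatives that tested them. For SMR2, SMR4 and SMR6, whose arrays do not overlap between the lines, leaving out arrays could not change the sign. The filter above the 30th percentile of level kept 8 of 8 members and the one above the median 5 of 8. With the repeat number as a block the count of members called stayed at 0, and 143 rows were higher and 5 lower over all rows, against 211 and 8. Between the lines, deviations from the line means correlated best for arrays of the same number, with r of at most 0.21. The design text names independent experiments without tying them to the numbers, so pairing is neither stated nor settled. Rows lower were 14 and 22 with the level filters. With arrays left out, 45 to 126 rows were higher and 1 to 6 lower. KRP genes called lower were 1 with either level filter and 1 with the variance trend, KRP7 each time, against 0. The median of the SIM and SMR genes ran from -0.054 to 0.064, and that of the CDK genes from -0.16 to -0.0020 with arrays left out. ERF6 passed in 17 of 17 alternatives (log2 fold 2.66 to 2.99, limma adjusted p up to 0.0354). Signal over background was not analysed here.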

Other observations

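The rows whose values ran most like those of SMR2, the member with the largest absolute moderated t, were sought among the 2744 rows that span at least 1 log2 unit over the 6 arrays. They were AT1G52270 (r 0.983), BAS1 (r 0.981), CIPK7 (r 0.979), AT4G18250 (r 0.974) and PDF1.2 (r 0.973), each r over 6 arrays. BAS1 encodes a cytochrome P450 that inactivates brassinosteroids, CIPK7 a protein kinase of calcium signalling and PDF1.2 a defensin. The lines do not overlap for SMR2, so r mostly reflects the difference between the lines. AT1G52270 (log2 fold 1.17, limma adjusted p 0.0453) and PDF1.2 (7.39, limma adjusted p 0.00249) passed the test, while BAS1 (0.63), CIPK7 (0.72) and AT4G18250 (0.92) did not. Among the family, SMR6 was most like SMR2 (r 0.701), at rank 2138 of all 30237 rows.

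Genes next to the members in the order of the TAIR10.1 annotation were also read. Of 16 such neighbours 10 were measured and 0 passed in limma, with log2 folds from -0.30 to 0.18. SMR2 lies between AT1G08170 (0.14) and VPS41 (-0.06), neither of which passed. In that annotation 3 members overlap another gene: SIM with AT5G04475, SMR1 with AT3G10527 and SMR5 with FTSH10. Only the last of these partners has a row (log2 fold -0.0031), and signal shared between overlapping genes was not separated.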
